A study of Homo sapiens with 4 samples.

Results

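Chromosome 14 genes were examined in ribosome profiling data of K562 and HepG2 cells. The members were genes with junctions on chromosome 14 that the deposited tables assign to 1 gene only, with 20 or more uniquely mapped reads over both tables. Genes whose symbol starts with SERPINA, a family of secreted protease inhibitors, were left out. The rule left 361 genes of 1245 on the chromosome, against 10956 genes in the whole series that reached 20 reads. Of the others, 140 had 1 to 19 reads and 744 had none. The chromosome was chosen by the ratios of HepG2 to K562 in these same tables, in which its genes lay toward HepG2, so those ratios are a description here and were not tested.

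K562 is an established human line from a chronic myelogenous leukemia with erythroid features, and HepG2 is an established line from a human liver tumor with hepatocyte features. The labels name no treatment, and each line was profiled in 2 samples. In ribosome profiling, RNA fragments that ribosomes shield from nuclease are sequenced, so that a count follows how many ribosomes sit on a message. The cells were lysed with cycloheximide, which holds elongating ribosomes in place. A table of counts per annotated splice junction covers both samples of a line, and no column separates them, so that there is no standard deviation and no test between samples. The intervals below are exact 95% binomial intervals and cover counting error only, since the reads carry no molecular identifiers. They say nothing of how cultures vary. A footprint count cannot tell more message from more ribosomes per message.

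Background on the chromosome helps in reading the values. Human chromosome 14 is acrocentric: its short arm carries repeats and ribosomal RNA genes, and its protein-coding genes lie on the long arm. The part of that arm nearest the centromere holds the genes of the proteasome activator PA28 and a cluster of short-chain dehydrogenases, and the part after it holds SEC23A, SRP54 and NFKBIA. The far end holds the imprinted segment around DLK1 and the immunoglobulin heavy chain genes. Both lines are aneuploid cancer lines. The number of copies of any chromosome was not measured in these data, and its part in the ratios was not tested.

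The table of K562 held 7487508 uniquely mapped junction reads and that of HepG2 held 9927809. The members took 177663 and 321087 of these. TMM scaling, which sets the depth of a table so that most genes keep a ratio near 1, was used throughout. After it, the effective depths of both tables were nearly equal, so that the read counts printed below can be compared almost directly. Where a pair of counts stands without names, that of K562 comes first. The markers of the lines went with their labels. ALB, the gene of serum albumin, had 41 reads in K562 beside 349063 in HepG2, and AFP had 162 and 371360. HNF4A, a hepatocyte transcription factor, had 0 and 1545 reads. GATA1, the erythroid transcription factor, had 776 reads in K562 beside 0 in HepG2, RHAG had 7365 and 0, and GYPB had 1279 and 0.

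Some of the junctions behind the results are shown here so that it can be seen what was counted. Each line gives 15 bases of the exon before the junction in lower case and 15 bases of the exon after it in capitals, 5′ to 3′ on the gene's strand, from GENCODE release 29 transcripts on GRCh38. The first 3 are each the most-read coding junction of a gene before 40 Mb that lay toward HepG2, and the next 2 are the same for the best-read genes toward K562. The last 6 are the alternative junctions of 3 genes in which the lines used different splice sites.
SEC23A, chr14:39055297-39061764, minus strand: caccattgctaggaaCTGGGCAGATGCTCA
SRP54, chr14:35019075-35022909, plus strand: gtatgaatgatcaagAACTAGACAGTACGG
PSME1, chr14:24137432-24137519, plus strand: aagaaacagcaggagAAGGAAGACAAGGAT
PNP, chr14:20474949-20475061, plus strand: gcccaatgatgaaagGTTTGGAGATCGTTT
WARS1, chr14:100360663-100361707, minus strand: acgataagctcattgTTCGGTTTGGAAGTA
PARP2 upstream donor, chr14:20345088-20345393, plus strand: aagacaagcaagatgAATCTGTGAAGGCCT
PARP2 downstream donor, chr14:20345127-20345393, plus strand: gcaaaagggtctctgAATCTGTGAAGGCCT
HNRNPC upstream donor, chr14:21230367-21230996, minus strand: agcggagatgtacggCTCCTCTTTTGACTT
HNRNPC downstream donor, chr14:21230367-21230957, minus strand: gtcccctctactcagCTCCTCTTTTGACTT
NUMB exon included, chr14:73316423-73323129, minus strand: aaaagattgaaagctGAAAGGAAGTTCTTC
NUMB exon skipped, chr14:73297286-73323129, minus strand: aaaagattgaaagctACTGGAAAGAAAGCA
The junction of SEC23A had 60 reads in K562 beside 2435 in HepG2, and that of SRP54 had 410 and 1486. The junction of PSME1 had 392 and 1708 reads. For PNP the counts were 659 and 237, and for WARS1 they were 988 and 152. The positions are those of the intron, counted from 1.

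Along the whole chromosome, the median log2 ratio of HepG2 to K562 over the 361 genes was 0.75, a ratio of 1.68, with quartiles at −0.24 and 1.93. The median of all 10956 genes was 0.01. A gene was called in a line if its ratio favoured that line by over 2-fold across its full interval. By that rule 122 of the 361 genes (33.8%) were higher in HepG2, against 21.9% of all genes, and 34 (9.42%) were higher in K562, against 16.8% of all genes. The other 205 genes were not called. The log2 ratio was above 0 in 248 genes (68.7%), against 50.3% of all genes. No count is read against these backgrounds as a test, since the same contrast chose the chromosome.

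The higher values were also present among genes read in both lines. Among the 272 members with 20 or more reads in each table the median log2 ratio was 0.64, beside −0.04 for the 7749 other genes that met the same limit. Of those 272 members, 81 (29.8%) were higher in HepG2 and 14 (5.15%) in K562, and of the 7749 others 1076 (13.9%) and 884 (11.4%) were. In addition, 15 members had no read in K562 and 14 had none in HepG2. Genes on the plus strand (179, median log2 ratio 0.79) and on the minus strand (182, median 0.71) lay alike. The 100 members with 1000 or more reads had a median log2 ratio of 0.78 and the other 261 had 0.69. Members not annotated as protein-coding were few, 12 in all, of which 3 were called in HepG2 and 4 in K562. The HepG2 calls among them include an unnamed gene that the annotation does not hold, with 0 and 64 reads. Its type is not known.

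The position of a gene along the chromosome went with its ratio. In steps of 10 megabases (Mb), a gene being placed by its lowest junction, the step from 20 to 30 Mb held 67 members with a median log2 ratio of 1.39, and 33 were higher in HepG2 and 7 in K562. The step from 30 to 40 Mb held 36 members with a median of 1.72, and 26 were higher in HepG2 and 2 in K562. The next step, from 40 to 50 Mb, held 14 members with a median of −0.13, of which 1 was higher in HepG2 and 2 in K562. From the step at 30 Mb to its neighbour at 40 Mb, the genes with a log2 ratio above 0 went from 33 of 36 to 7 of 14.

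Beyond 50 Mb the medians lay nearer to the median of all genes. They were 0.49 over 48 members from 50 Mb, 0.42 over 43 from 60 Mb, 0.08 over 55 from 70 Mb and 0.13 over 13 from 80 Mb. From 90 Mb the median of 40 members was 0.71, and from 100 Mb that of 44 members was 0.27. The medians from 70, 80 and 100 Mb turn to below 0 when total reads set the scale, at −0.34, −0.29 and −0.15, above the −0.41 of all genes on that scale. The numbers called in HepG2 and K562 in these 6 steps were 13 and 3, 11 and 2, 11 and 7, 2 and 2, 13 and 4, and 12 and 5. The step below 20 Mb held 1 gene, the pseudogene DUXAP9, with 15 reads in K562 beside 28 in HepG2.

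**Figure D1:**
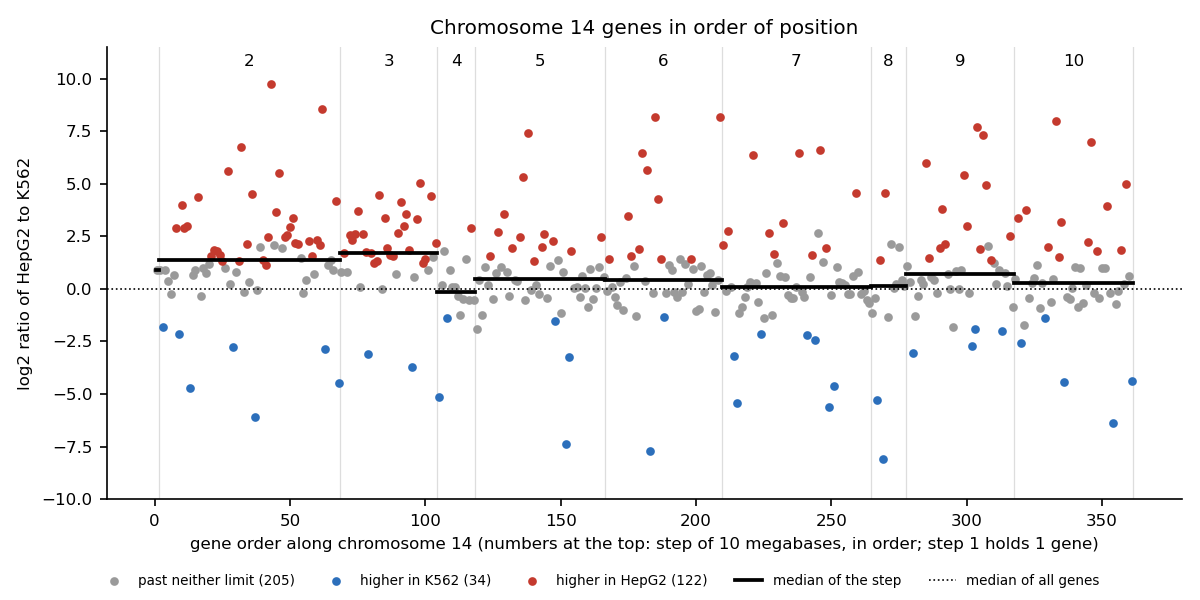
Log2 ratio of HepG2 to K562 for each of the 361 genes, in the order of their position along the chromosome, with genes at 0 reads in 1 table drawn at a floor of 3 reads, each step's median as a line and colours for the calls. The numbers at the top count the steps, so that step 2 starts at 20 Mb and step 10 at 100 Mb. The genes of the steps from 20 and 30 Mb lie mostly above 0, with medians of 1.39 and 1.72, and the step from 40 Mb lies around its median of −0.13.

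Single junctions gave a like picture before 50 Mb. Of the junctions with 20 or more reads, 343 of 414 (82.9%) lay on the HepG2 side in the step from 20 Mb and 284 of 314 (90.4%) in the step from 30 Mb. In the step from 40 Mb 44 of 95 (46.3%) did. The shares in the later steps ran from 54.2% from 80 Mb to 72.7% from 60 Mb. Junctions of 1 gene share their message and are not independent of each other. In steps of 5 megabases, the medians from 20, 30 and 35 Mb were 1.44, 1.72 and 1.73, and that from 45 Mb, over 11 genes, was −0.33. The 13 genes from 95 to 100 Mb had a median of 1.22.

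A split at 40 Mb, chosen after these steps were seen, describes the pattern in fewer values. The 104 members before 40 Mb had a median log2 ratio of 1.56, a ratio of 2.95, and 59 of them (56.7%) were higher in HepG2 and 9 in K562. Their reads summed to 46713 in K562 beside 158002 in HepG2. The 257 members from 40 Mb on had a median log2 ratio of 0.31, and 63 (24.5%) were higher in HepG2 and 25 (9.73%) in K562. Their reads summed to 130950 and 163085. The share called in HepG2 beyond 40 Mb is thus near the 21.9% of all genes, while the share called in K562 is below the 16.8% of all genes. DHRS2 and SEC23A carry many of the HepG2 reads before 40 Mb. Without both, the sums were 46210 and 106597 reads, a ratio of 2.32 in place of 3.40. Scaling by total reads lowers every log2 ratio by the same amount and takes the median of all genes to −0.41. On that scale the median beyond 40 Mb was −0.11 and lay above that of all genes, as it does with TMM scaling.

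Among the autosomes, chromosome 20 had the highest median log2 ratio, 1.31 over 301 genes, and chromosome 14 came next. Chromosome 2 followed with 0.43 and chromosome 17 with 0.38. Over all chromosomes, 282 steps of 10 megabases held 10 or more genes and were ranked by their median. On chromosome 20 every step ranked between 1 and 19. On chromosome 14 the steps from 30 and 20 Mb ranked 2 and 8, and its next was the step from 90 Mb, at rank 33, while the step from 40 Mb ranked 163. The longest run of neighbouring members with a log2 ratio above 0 on chromosome 14 held 16 genes, from BCL2L2 at 23.3 Mb to TM9SF1 at 24.2 Mb, with a median log2 ratio of 2.32 and 12 genes called in HepG2. It ended at NEDD8-MDP1, with 14 and 12 reads. With the junctions that it shares with other genes, NEDD8-MDP1 had 5379 and 11245 reads and was called in HepG2. The end of the run thus depends on the junctions left out, and runs were not recounted with them. On chromosome 20 the longest run held 23 genes, with a median of 1.44.

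**Figure D2:**
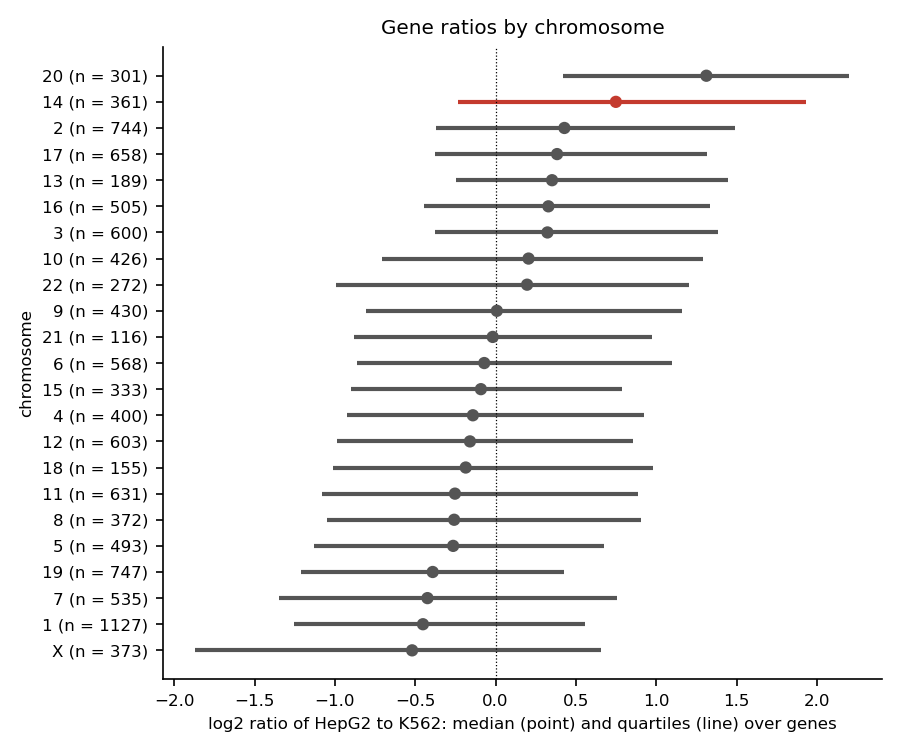
Median log2 ratio of HepG2 to K562 by chromosome, with the quartiles of its genes. Chromosome 14, with a median of 0.75, lies below chromosome 20 at 1.31 and above chromosome 2 at 0.43.

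The stretch from 30 to 40 Mb had the highest step median and the highest share of genes called in HepG2. The protein traffic genes named next were all called there. SEC23A, the inner coat subunit of COPII vesicles that leave the endoplasmic reticulum, had 460 reads in K562 beside 15056 in HepG2, a ratio of 32.9 (29.97 to 36.2). All 19 of its junctions with 10 or more reads lay on the HepG2 side. SRP54, the subunit of the signal recognition particle that binds signal sequences, had 1624 and 6175 reads, a ratio of 3.82 (3.62 to 4.04). SCFD1, which acts with SNARE proteins between the endoplasmic reticulum and the Golgi, had 1382 and 4509 reads, a ratio of 3.28 (3.09 to 3.48). SNX6, a sorting nexin of the retromer route, had 2007 and 5009 reads, a ratio of 2.51 (2.38 to 2.64).

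Regulatory genes of that stretch were also called in HepG2. NFKBIA, the inhibitor that holds NF-kappaB in the cytoplasm, had 128 reads in K562 beside 2247 in HepG2, a ratio of 17.6 (14.8 to 21.2). STRN3, a striatin that directs the phosphatase PP2A, had 335 and 1950 reads. CFL2, a cofilin that severs actin filaments, had 57 and 1233 reads, and BRMS1L, a subunit of a histone deacetylase complex, had 88 and 1028. Among the called genes named here the ratio ran from 2.51 in SNX6 to 32.9 in SEC23A.

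A few genes between 30 and 40 Mb went against the rest. SLC25A21, a mitochondrial carrier of dicarboxylates, had 694 reads in K562 beside 52 in HepG2, a K562-to-HepG2 ratio of 13.3 (10.01 to 17.97). EGLN3, a prolyl hydroxylase that marks hypoxia-inducible factors for breakdown, had 181 and 21 reads. Both were called in K562, and none of their junctions with 10 or more reads lay on the HepG2 side. BAZ1A, a subunit of chromatin remodelling complexes, had 1116 and 1093 reads, a ratio of 0.984 (0.904 to 1.07). The other 7 uncalled genes were G2E3, COCH, DTD2, PRORP, MIPOL1, PNN and MIA2, with ratios between 1.07 and 2.88. With the junctions that it shares with another gene, MIA2 had 174 and 1699 reads and was called in HepG2.

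**Figure D3:**
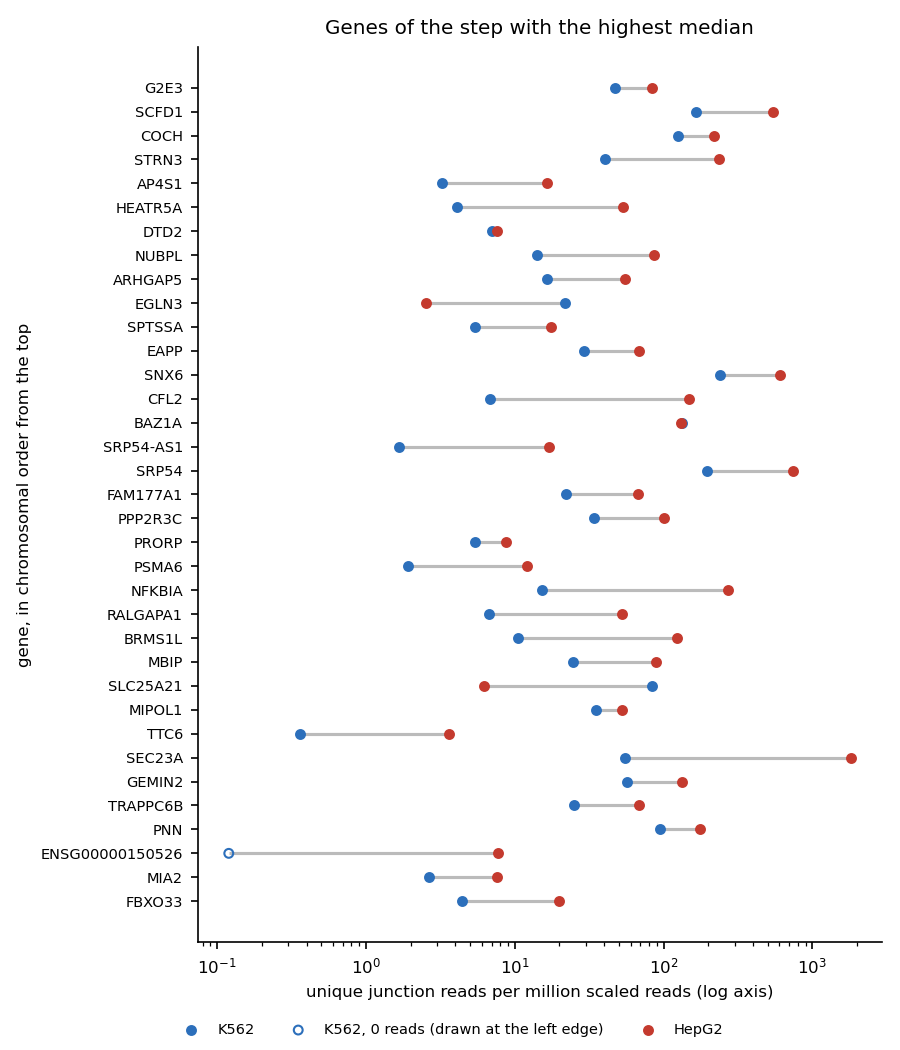
Uniquely mapped junction reads scaled to a common depth in each table (horizontal log axis) for 35 of the 36 genes from 30 to 40 Mb, in chromosome order from the top, with an open point at the left edge for a gene at 0 reads. The HepG2 point lies to the right of the K562 point in all but EGLN3, SLC25A21 and BAZ1A. SEC23A spans from 460 to 15056 reads before scaling.

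Between 20 and 30 Mb the values were more mixed. DHRS2, a short-chain dehydrogenase, had 43 reads in K562 beside 36349 in HepG2, a ratio of 849 (630.4 to 1174), which was 11.3% of all member reads in HepG2. The related genes DHRS1 (112 and 551 reads), DHRS4 (21 and 267) and DHRS4L2 (1 and 45) were called in HepG2 as well. Only 35.7% of the mapped reads of DHRS4 and 11.6% of those of DHRS4L2 were unique, since these genes are near copies, and their values are uncertain. CIDEB, a lipid droplet protein that serves the loading of lipoproteins, had 0 and 1121 reads, at least 375-fold higher in HepG2 against a floor of 3 reads in the table at 0. PCK2, the mitochondrial PEP carboxykinase, had 349 and 1892 reads, and GMPR2, a GMP reductase, had 308 and 1466.

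Genes of basic cell functions in the same step were called too. DAD1, a subunit of the enzyme that attaches N-glycans, had 737 reads in K562 beside 2513 in HepG2, a ratio of 3.43 (3.15 to 3.72). OXA1L, which inserts proteins into the inner mitochondrial membrane, had 743 and 1823 reads. METTL3, the enzyme that writes N6-methyladenosine on RNA, had 214 and 766. SUPT16H, a histone chaperone subunit, had 3404 and 6723 reads, a ratio of 1.98 (1.90 to 2.07), and was not called.

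Of the 7 genes of that step called in K562, PNP had the most reads. PNP, the purine nucleoside phosphorylase, had 5882 reads in K562 beside 1302 in HepG2, a K562-to-HepG2 ratio of 4.50 (4.23 to 4.78). RBM23, an RNA-binding protein, had 669 and 99 reads, and CCNB1IP1, a ubiquitin ligase of meiotic crossovers, had 577 and 162. SLC7A8, an amino acid transporter, had 206 and 0 reads and RNASE1, a secreted ribonuclease, had 80 and 0. The others were NFATC4 (22 and 0 reads) and the noncoding LINC02327 (68 and 0). Of the 577 reads of CCNB1IP1 in K562, 565 lay at junctions of the 5′ untranslated region, so that its value says little about its coding part.

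Proteasome genes of chromosome 14 lay further toward HepG2 before 40 Mb than beyond it. The list of 6 measured members had a median log2 ratio of 2.18, beside 0.75 for all members, and 4 were called in HepG2 and none in K562. PSME1, a subunit of the activator PA28, had 1488 reads in K562 beside 11437 in HepG2, a ratio of 7.72 (7.32 to 8.16). PSME2, its partner subunit, had 696 and 3187 reads, a log2 ratio of 2.20. PSMB5, which carries the chymotrypsin-like activity of the core, had 104 and 461 reads, and without its most-read junction its log2 ratio was 1.32 and it was not called. PSMA6, a core subunit, had 16 and 100 reads of its own, but most of its reads lie at junctions that it shares with an unnamed gene, 475 in K562 beside 697 in HepG2. With these added its ratio was 1.62 (1.45 to 1.82) and it was not called. All 4 start before 40 Mb. PSMC6 and PSMA3, which start beyond 50 Mb, had 757 and 1014 reads and 6686 and 6742 reads, and neither was called. The 38 proteasome genes on other chromosomes had a median log2 ratio of −0.22, with 4 called in each line. High ratios to HepG2 were thus not confined to chromosome 14. The HepG2 calls were PSMB8 and PSMB9 on chromosome 6, with log2 ratios of 2.61 and 5.46, and PSMA7 (2.26) and PSMF1 (1.72) on chromosome 20. In PSME2 26.5% of mapped reads were unique, in PSMC6 25.9% and in PSMA6 7.37%.

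The secretory pathway list was the largest list toward HepG2 that was called there alone. It also takes in genes of other functions, such as STRN3 and SYNE2, both called in HepG2. Of 32 measured, 17 (53.1%) were higher in HepG2 and none in K562, beside 33.8% and 9.42% of all members and 21.9% and 16.8% of all genes, with a median log2 ratio of 1.42. Of all members, 56.7% before 40 Mb and 24.5% from 40 Mb on were called in HepG2. On this list 9 of 11 before 40 Mb were called, with a median of 1.93, and 8 of 21 from 40 Mb on, with a median of 0.78. The latter included TMED10, a cargo receptor of the early secretory pathway, with 1055 reads in K562 beside 3197 in HepG2, and ERO1A, which supplies oxidizing power for disulfide bonds, with 1048 and 4045. NPC2, a lysosomal cholesterol carrier, had 165 and 1448 reads. SYNE2, a nuclear envelope protein, had 0 and 267. KTN1, the kinectin gene, had 2446 and 4204 reads, a ratio of 1.73 (1.64 to 1.82), and was not called. Some families were also read on other chromosomes, a comparison chosen after the values were seen. SRP54 stood above the other particle subunits: the 5 on other chromosomes had a median log2 ratio of −0.32 and none was called. EMC9, a subunit of the membrane insertase EMC, had 59 and 607 reads, a log2 ratio of 3.37 beside a median of −0.03 for the 8 other EMC genes. Of these, EMC7 (793 and 1813 reads) was called in HepG2 and EMC10 (301 and 0) in K562. COPII differed, since the 9 other coat genes had a median of 0.79 and 4 were called in HepG2.

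Of 22 ubiquitin ligation and autophagy genes, 8 (36.4%) were called in HepG2 and 1 in K562, with a median log2 ratio of 0.93. The share called in HepG2 was near the 33.8% of all members. Before 40 Mb 5 of 6 were called in HepG2, and from 40 Mb on 3 of 16, beside 56.7% and 24.5% of all members there. Beside SNX6, KLHDC2, a substrate receptor of a cullin ligase, had 196 reads in K562 beside 1458 in HepG2, a ratio of 7.47 (6.43 to 8.72). SEL1L, a partner in the removal of misfolded proteins from the endoplasmic reticulum, had 955 and 2424 reads. PELI2, a ligase of innate immune signalling, had 29 and 0 reads and was the gene called in K562. VCPKMT, a methyltransferase that acts on the chaperone VCP, had 30 and 8 reads and was not called.

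The genes on the translation list lay apart on either side of 40 Mb. The 21 members of the translation list had a median log2 ratio of −0.09, below the 0.75 of all members. The list also holds ABCD4 and CIPC, which have other functions and were not called. The 7 before 40 Mb had a median of 1.93 and 6 were called in HepG2, beside 56.7% of all members there. Among the 6 were the ribosome assembly genes NOP9 (178 and 754 reads) and NGDN (1052 and 2302). The others called were SRP54, also on the secretory list, PABPN1, also on the RNA processing list, RNASE4 and ANG. RNASE4 and ANG, secreted ribonucleases on that list, had 0 and 47 and 0 and 22 reads. The 14 from 40 Mb on had a median of −0.35 and none was called in HepG2, beside 24.5% of all members there. RPS29, a small subunit ribosomal protein and the best-read gene of its step, had 10198 reads in K562 beside 8071 in HepG2, a ratio of 0.795 (0.772 to 0.819). WARS1, the tryptophan transfer RNA ligase, had 6140 and 1039 reads, a K562-to-HepG2 ratio of 5.88 (5.51 to 6.29), and all 13 of its junctions with 10 or more reads lay on the K562 side.

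Metabolic genes with high ratios to HepG2 lay on both sides of 40 Mb. Of 38 measured, 18 (47.4%) were called in HepG2 and 3 (7.89%) in K562, with a median log2 ratio of 0.99. Of all members 33.8% and 9.42% were called, and of all genes 21.9% and 16.8%. The list also takes in genes of other functions, such as HIF1A and CRIP2, both called in HepG2 and both beyond 40 Mb. Before 40 Mb 7 of 8 were called in HepG2, with a median of 2.38. From 40 Mb on 11 of 30 were, with a median of 0.50, so that most of these were not called in HepG2. Of all members, 56.7% before 40 Mb and 24.5% from 40 Mb on were called in HepG2. PYGL, the liver glycogen phosphorylase, had 480 reads in K562 beside 3092 in HepG2, a ratio of 6.47 (5.88 to 7.14). ACOT2, a mitochondrial thioesterase, had 0 and 245 reads. MTHFD1, an enzyme of folate metabolism, had 2870 and 3730 reads, a ratio of 1.31 (1.24 to 1.37). GALC, the lysosomal galactosylceramidase, had 820 and 0 reads, at least 272-fold higher in K562 against the floor of 3 reads, and all 15 of its junctions with 10 or more reads lay on that side.

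Of 40 genes measured on the signalling list, 19 (47.5%) were called in HepG2 and 3 (7.50%) in K562, with a median log2 ratio of 1.07. Of all members 33.8% and 9.42% were called, and of all genes 21.9% and 16.8%. The 19 include PYGL, named above under metabolism, and the cargo receptor CNIH1. All 5 before 40 Mb were called in HepG2, with a median of 4.14, and 14 of the 35 from 40 Mb on, with a median of 0.75. Of all members, 56.7% before 40 Mb and 24.5% from 40 Mb on were called in HepG2. BMP4, a secreted growth factor, had 0 reads in K562 beside 503 in HepG2, and AMN, a membrane partner of the cubilin receptor, had 0 and 753. AJUBA, a LIM scaffold protein, had 9 and 975 reads, a ratio of 109 (57.1 to 239). FERMT2, an integrin activator, had 26 and 1032. JAG2, a Notch ligand, had 85 reads in K562 beside 1 in HepG2, a K562-to-HepG2 ratio of 84.6 (14.8 to 3381). DLK1 was the measured member of the imprinted segment, with 75 and 1006 reads, a ratio of 13.5 (10.7 to 17.3).

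Nuclear genes lay nearer to 0 as whole lists, and most of them start from 40 Mb on. Of 39 genes listed under DNA replication, repair and chromosome segregation, 5 (12.8%) were called in each line, with a median log2 ratio of 0.20. Of all members 33.8% were called in HepG2 and 9.42% in K562, and of all genes 21.9% and 16.8%. The list also takes in genes of other functions, such as AJUBA and PCNX1, called in HepG2, and TTC7B, called in K562. The 8 before 40 Mb had a median of 0.94, and the 31 from 40 Mb on had one of 0.08. The K562 calls include CINP, whose direction rests on 1 junction, and CCNB1IP1, read in K562 mostly in its 5′ untranslated region. VRK1, a chromatin kinase of mitosis, had 3448 reads in K562 beside 849 in HepG2, a K562-to-HepG2 ratio of 4.04 (3.75 to 4.36). DLGAP5, a spindle protein, had 2410 and 818. APEX1, the base excision repair endonuclease, had 1412 and 2191 reads and was not called. Of 24 RNA processing genes 6 (25%) were called in HepG2 and 2 (8.33%) in K562, with a median of −0.03. The share called in HepG2 was near that of all genes. The 9 before 40 Mb had a median of 0.91, and the 15 from 40 Mb on had one of −0.19. DICER1, which cuts microRNA precursors, had 285 and 1055 reads, and HNRNPC, a nuclear RNA-binding protein, had 3668 and 2850. Only 36.03% of the mapped reads of HNRNPC were unique.

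Among 31 chromatin and transcription factor genes, 5 (16.1%) were called in each line, with a median log2 ratio of 0.31. Of all members 33.8% were called in HepG2 and 9.42% in K562, and of all genes 21.9% and 16.8%. The 10 before 40 Mb had a median of 1.11, and the 21 from 40 Mb on had one of −0.09. HIF1A, the oxygen-regulated transcription factor, had 379 reads in K562 beside 4144 in HepG2, a ratio of 11.0 (9.89 to 12.2). DPF3, a reader of histone acetylation, had 130 and 3, and ESRRB, an orphan nuclear receptor, had 74 and 0. The medians of the replication and chromatin lists turn to below 0 when total reads set the scale. So does that of the 7 genes on the solute carrier list, 0.18, with 1 (14.3%) called in HepG2 and 2 (28.6%) in K562. The solute carrier list also holds ATP6V1D and ABCD4, which are not SLC genes and were not called. Of the 10 chaperones and their partners 2 (20%) were called in HepG2 and 1 (10%) in K562, with a median of 0.74. The latter was CINP, a partner of a cyclin-dependent kinase, with 1365 reads in K562 beside 526 in HepG2. Without its most-read junction its log2 ratio of HepG2 to K562 was 0.38, so that 1 junction set its direction. HSP90AA1, a cytosolic chaperone, had 7828 and 11256 reads, a ratio of 1.44 (1.40 to 1.49), with 40.6% of its mapped reads unique. The 121 members on no list had a median of 0.89, and 43 (35.5%) were called in HepG2 and 12 (9.92%) in K562.

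**Figure D4:**
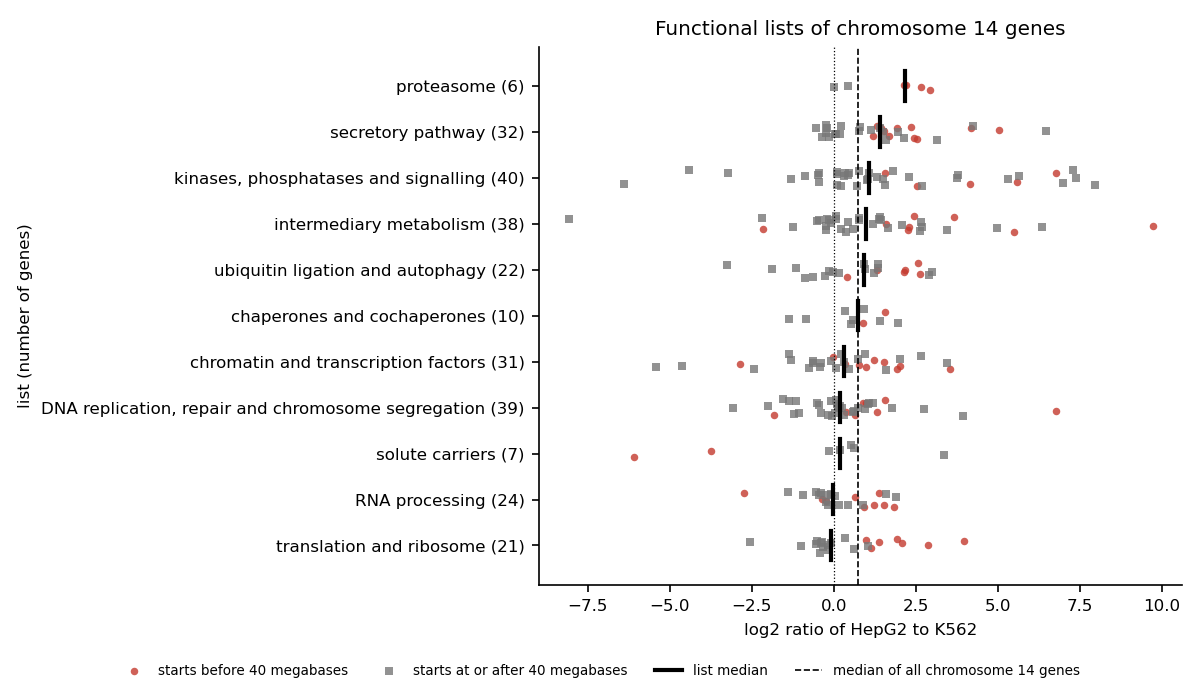
Log2 ratio of HepG2 to K562 for each gene of the functional lists, by whether it starts before 40 Mb or from 40 Mb on. On the translation list the 7 genes before 40 Mb have a median of 1.93 and the 14 from 40 Mb on have one of −0.35. Genes on the metabolism and signalling lists reach high ratios on both sides.

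Genes with no read in 1 line were spread over the chromosome. SMOC1, a secreted matrix protein, had 0 reads in K562 beside 855 in HepG2 at 69.9 Mb, and GPX2, a glutathione peroxidase, had 0 and 852 at 64.9 Mb. Both were at least 285-fold higher in HepG2 against the floor. SPTB, the beta spectrin of the red cell membrane, had 624 and 0 reads at 64.7 Mb, and all 19 of its junctions with 10 or more reads lay on the K562 side. It was at least 207-fold higher in K562. The noncoding LINC00520 (503 and 0 reads), LINC02315 (107 and 0) and the ciliary transport gene IFT43 (149 and 0) were further genes read in K562 only.

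The values close to the limits show what the rule decides. IFI27, with 14 reads in K562 beside 5 in HepG2, was 1 read short of the minimum. EAPP, with 242 and 566 reads, was just inside the 2-fold call for HepG2, with an interval of its ratio from 2.02 to 2.74, as was RIN3 with 13 and 49 reads. ARG2, with 250 and 569 reads and an interval from 1.97 to 2.66, was just outside it, as was the actin crosslinker ACTN1 with 2169 and 4528 reads. For K562, MAX (492 and 196 reads) and FOS (27 and 5) were just inside, and LRR1 (468 and 199) and ZNF410 (193 and 74) just outside.

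Which splice site a gene used is a share within the gene and does not enter the ratio that chose the members. Shares were measured at 686 splice sites in 187 members with 20 or more reads at the site in each table. A junction was counted where its share differed by 20 percentage points or more and the exact 95% intervals did not overlap. This held for 32 junctions at 20 sites (2.92%), against 3.12% of 17213 sites over all genes, so that the members were near the background. The 17 genes concerned were 9.09% of those measured, beside 8.70% over all genes. Of them 7 lie before 40 Mb and 10 beyond it.

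PARP2, a DNA damage sensor that makes poly(ADP-ribose), had the largest difference between coding junctions. Its donors lie 39 bases apart and share an acceptor, so that the reading frame is kept. The upstream donor took 1 of 36 reads in K562 (2.78%, 0.0703 to 14.5%) beside 84 of 114 in HepG2 (73.7%, 64.6 to 81.5%). HNRNPC has the same layout, with donors also 39 bases apart. Its downstream donor, which lengthens the exon, took 28 of 98 reads in K562 (28.6%, 19.9 to 38.6%) beside 13 of 195 in HepG2 (6.67%, 3.60 to 11.1%). NUMB, an endocytic adaptor that opposes Notch, includes or skips an exon of 33 bases in its phosphotyrosine-binding domain. The exon was joined in 17 of 78 reads in K562 (21.8%, 13.2 to 32.6%) beside 47 of 106 in HepG2 (44.3%, 34.7 to 54.3%).

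Other counted sites lay in coding or leader regions of single genes. MNAT1, an assembly factor of the kinase that activates cyclin-dependent kinases, joined the nearer of its acceptors in 9 of 21 reads in K562 beside 24 of 28 in HepG2. PPP2R3C, a phosphatase regulatory subunit, used the nearer of its donors in 12 of 31 and 71 of 89 reads. In ACIN1, an apoptotic chromatin factor, the longer intron took 72 of 146 reads in K562 beside 145 of 205 in HepG2. In PSMB5 the junction of the main transcript took 18 of 52 reads at its donor in K562 and 240 of 336 in HepG2. FAM177A1, a gene of little-known function, joined the farther acceptor in 23 of 66 and 100 of 158 reads. CNIH1, a cargo receptor, used a coding junction in 99 of 167 and 118 of 148 reads, and SLC39A9, a zinc transporter, in 97 of 155 and 131 of 152. A coding junction of EVL, an actin regulator, had 15 of 46 reads in K562 beside 0 of 20 in HepG2, which allows a share of up to 16.8%.

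Junctions of the 5′ untranslated region, the leader, differed in several members. PPM1A, a protein phosphatase, joined 1 leader exon to its acceptor in 6 of 37 reads in K562 beside 31 of 36 in HepG2. WARS1 had a leader junction with 281 of 998 reads in K562 beside 4 of 182 in HepG2. HAUS4, a subunit of the augmin complex, had one with 39 of 43 and 16 of 29 reads. IFI27L1, an interferon-related gene, divided its leader reads between acceptors 292 to 108 in K562 and 23 to 21 in HepG2. GSKIP, an anchoring partner of the kinase GSK3, used neighbouring donors, 1 with 587 of 587 reads in K562 and the other with 660 of 664 in HepG2. The noncoding PSMA3-AS1 had a junction with 82 of 96 and 32 of 67 reads.

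**Figure D5:**
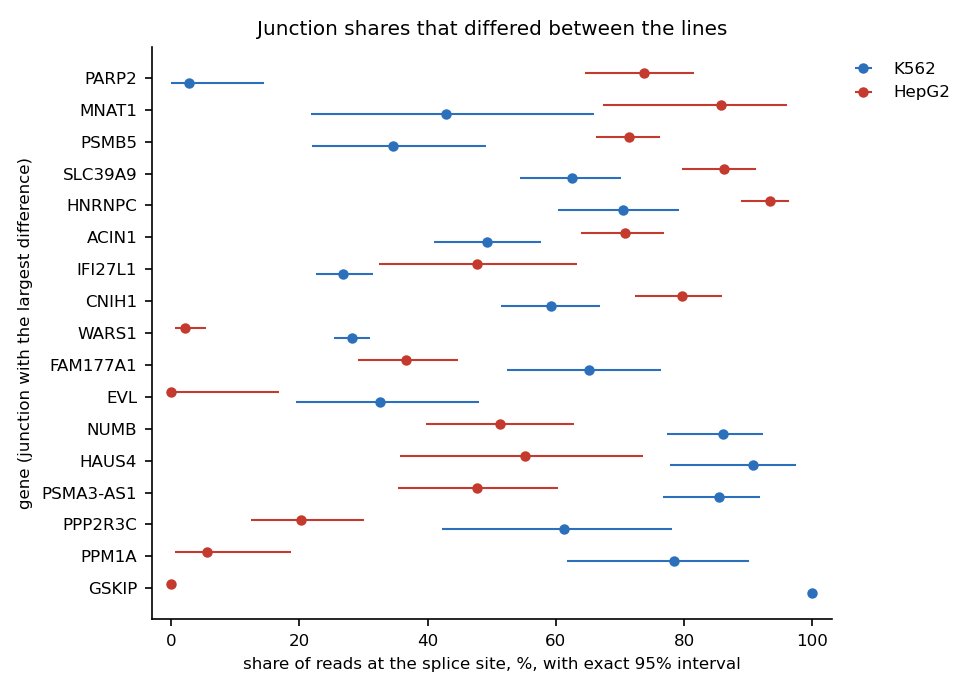
Share of reads (percent) at a splice site that the named junction takes in each table, with exact 95% intervals, for the 17 members with a counted difference, each by its junction with the largest one. PARP2 lies at 2.78% in K562 and 73.7% in HepG2, and for NUMB the junction is in the leader, at 86.0% and 51.3%.

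The balance between leader and coding junctions is a further measure within a gene. Over the members, junctions in 5′ untranslated regions took 6.17% of reads in K562 and 3.23% in HepG2, and those joining coding parts took 92.8% and 96.3%. Among 91 members with 10 or more reads of each class, the leader-to-coding ratio of K562 exceeded that of HepG2 in 68 (74.7%), with a median of 1.54-fold. Over 2397 other genes it did so in 76.1%, with a median of 1.75-fold. Members before 40 Mb (29 genes, median log2 of the K562 over HepG2 balance 0.68) and beyond it (62 genes, 0.60) both leaned to K562, which was the higher in 21 and 47 of them. PSMB5 had 13 leader and 91 coding reads in K562 and 9 and 452 in HepG2. FUT8, a fucosyltransferase, went the other way, with 744 leader and 73 coding reads in K562 beside 687 and 22 for HepG2.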

How the data were processed

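Ribosome-protected fragments of K562 and HepG2 were sequenced in 2 samples per line. Reads were processed with cutadapt, Bowtie2 and STAR 2.6.0 on hg38 (GRCh38), per the submitters' processing notes, which do not give the role of each tool. No source used here names the junction counter or the annotation release. The deposited values are raw counts of reads per annotated junction, per the file headers, with 350863 junctions in each table. Both samples of a line share 1 table, which leaves no test across samples and no leave-out of a sample. The signal tracks that the labels name were not analysed here.

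Junctions were matched to the introns of GENCODE release 29 (350016 matched, 99.76%) and classed as coding, leader, trailer or noncoding. Symbols were found for 34615 of 35224 gene identifiers in the name table. Uniquely mapped counts at junctions of 1 gene were added up for each gene. The 275 junctions on chromosome 14 that name more than 1 gene were left out. Tables were scaled by TMM in edgeR 4.0.16 (R 4.3.3) over genes with 20 or more reads. A count of 0 was set to 3 in ratios and medians. Intervals of ratios are exact conditional binomial (Clopper-Pearson, 95%), computed with SciPy 1.17.1. Scripts were tested on simulated data.

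The chromosome, its members and the functional lists were chosen with earlier results of these data known, and the lists support nothing about their own direction. The lists are broad and overlap, and some hold genes of other functions. The split at 40 Mb and the families on other chromosomes were chosen after the values were seen. Named genes were, by rule, the 4 best-read members and the 2 farthest from the median of each list, the 8 members most extreme toward either line by interval bound, and the 2 best-read of each step. Genes next to a threshold, genes with a counted junction share, the 6 best-read noncoding members and marker genes were added. Some genes that this rule names are not reported here. Any other gene named is a member of a list, of the step from 20 or 30 Mb or of the leader comparison, and was chosen after its values were seen. Alternatives were total-read and DESeq2 1.42.0 scaling, TMM without chromosomes 14 and 20, all mapped reads, other minimums, 99% intervals, other junction classes and step widths.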

Additional observations from a re-analysis of the deposited data

Results flagged for a closer look

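Reads at chromosome 14 junctions that name more than 1 gene were outside every comparison above. They came to 12715 uniquely mapped reads in K562 and 35482 in HepG2. The largest set was shared by NEDD8, a ubiquitin-like modifier, and the readthrough gene NEDD8-MDP1, with 5304 reads in K562 and 10999 in HepG2, while NEDD8 alone had 43 and 57. Junctions shared by PABPN1 and BCL2L2-PABPN1 had 779 and 2430 reads, and those shared by MIA2 and an unnamed gene had 152 and 1636. Those of IPO4 and an unnamed gene had 920 and 2828. Other sets lay nearer to an equal level: that of KLC1 had 977 reads in K562 beside 1237 in HepG2, that of CHURC1 had 559 and 682, and that of PSMA6 had 475 and 697, with log2 ratios of 0.35, 0.29 and 0.56. A set shared by SERPINA3 and an unnamed gene, with 1 and 7053 reads, is part of the HepG2 sum.

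A further 5 genes with fewer than 20 unique reads had 100 or more mapped reads in all. PSMC1, a proteasome base ATPase at 90.3 Mb, had 3 unique reads in K562 and 0 in HepG2 but 3979 and 2740 mapped reads, a log2 ratio of HepG2 to K562 of −0.50. DUXAP10 had 138 and 167 mapped reads, DHRS4L1 had 38 and 232, MAGOH3P had 186 and 77, and ACOT1 had 0 and 101. These values carry no interval, since reads that map to several places are among them.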

How the results depend on the processing

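Scaling by total reads lowered every log2 ratio by the same amount. It took the chromosome median to 0.33, the medians of the steps from 20 and 30 Mb to 0.97 and 1.30, those from 70, 80 and 100 Mb to −0.34, −0.29 and −0.15, and the median of all genes to −0.41. The calls were then 92 in HepG2 and 44 in K562. Of the genes named by rule, SNX6, SEL1L, CNIH1, EAPP, RIN3, HAUS4, FAM177A1 and PPP2R3C were no longer called. OXA1L and NGDN lose their calls on that scale too. With TMM scaling their intervals start at 2.26 and 2.04, lower than the 2.38 of SNX6. With a minimum of 1 read the step from 20 Mb had a median of 0.90. When each line had to have 20 reads, K562 calls numbered 14. Junctions with a differing share numbered 32, and fell to 17 at 30 percentage points and to 19 with 50 reads at the site. When junctions of more than 1 gene were counted for each, 7 of the 36 members concerned had another call, among them PSMA6 and MIA2. The log2 ratio of CINP turned to 0.38 without its most-read junction and to 0.33 with coding junctions 60 or more bases after the start codon. Leaving out the most-read junction took the log2 ratio of GSKIP to −3.79. Of the step medians recomputed, 122 stayed within the 95% order-statistic interval of the reported median over its genes and 4 moved out of it. Of the values of named genes, 1142 kept their call and sign, 26 lost a call, 16 gained one, 2 turned and 21 uncalled ones changed sign. The difference between members before and from 40 Mb ran from 0.83 with a minimum of 1 read to 1.27. No paired analysis was possible because no column carries a replicate number, and for the same reason no replicate could be left out. Depth limits the calls of genes with few reads: VCPKMT, with 30 and 8 reads, has a K562-to-HepG2 ratio of 3.73 but an interval from 1.67 to 9.42.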
